A study of Mus musculus and Homo sapiens with 32 samples.

Results

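N6-methyladenosine (m6A) peaks that run across several exons were picked from the list of enriched regions called in wild-type mouse embryonic stem cells. In that list each peak is a set of exon blocks with the introns between them left out, and every peak with 3 or more blocks was taken as a member. There were 6133 such multi-exon peaks among 20055, against 10507 peaks with 1 block and 3415 with 2. They carried 8.95 Mb of the 14.5 Mb of exonic sequence in the list, or 62.0%. Bulk m6A-CT tagments RNA paired with cDNA inside nuclei where an anti-m6A antibody is bound, and input libraries are made from nuclei without the antibody. The wild-type and the Mettl3-/- (KO) cells were both C57BL/6 embryonic stem cells, with 2 m6A-CT libraries (antibody MilliporeSigma #ABE572) and 2 input libraries for each genotype. Peaks of E14 embryonic stem cells, of expanded potential stem cells (EPSC, whose cell line is given as E14) and of CF1 mouse embryonic fibroblasts (MEF) came from 100K nuclei. Those 3 lists rest on another antibody (Synaptic Systems #202003) and another peak caller, with 2 m6A-CT libraries to a group. Whether the 2 libraries of a group were separate cultures, which part of Mettl3 was removed and how many clones the KO line holds are not given in the sources used here.

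As background, METTL3 is the catalytic subunit of the methyltransferase complex that deposits most m6A on messenger RNA while the RNA is being made and spliced. The mark is known for its preference for long internal exons and for the last exon around the stop codon, and the exon junction complex is known to keep methylation low in short internal exons and near splice junctions. In stem cells, m6A is known for speeding the decay of transcripts such as those of pluripotency regulators. A multi-exon peak therefore joins stretches of RNA that differ in these features.

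The cells were set against markers first, counting only reads in regions of the genotype table. A gene without a region there may still be expressed, so absence of other cells could not be shown. Of 10 stem cell markers, 7 had regions in the table that compares the genotypes, with 52.0 to 225 RPM (reads scaled by the library total) in wild-type input, while 2 of 7 fibroblast markers had any, with 3.17 RPM in sum, and the others of that list had no region. Of 4 endothelial and blood markers, 2 had regions, with up to 17.6 RPM (Pecam1) and the other at 0. Mettl3 itself had 1 region, with 1.71 RPM in wild-type and 2.47 RPM in KO input, which checks nothing as long as the deleted part is unknown. The genotype columns were pooled over replicates and held 39310394 reads (m6A-CT) and 45090626 reads (input) for wild-type cells and 37532658 reads (m6A-CT) and 51031598 reads (input) for KO cells. The depth behind the peak lists is unknown. Without values per library there is no replicate error, and no test was made between the classes. Intervals of shares are Wilson 95% intervals that cover counting error only, as reads from PCR without molecular identifiers are not independent molecules.

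Multi-exon peaks were longer and had higher fold enrichment than single-block peaks. Their median exonic length was 845 bp (quartiles 350.0 and 1941), against 201 bp (101 and 448) for peaks with 1 block. The fold enrichment of m6A-CT over input is the peak caller's own value as the authors deposited it, and its median was 5.0 (quartiles 3.2 and 9.0) in multi-exon peaks and 3.5 (2.6 and 5.0) in single-block peaks. A fold of 10 or more was reached by 1384 multi-exon peaks (22.6%) and by 548 single-block peaks (5.22%), where 10.6% of the whole list did so. Fewer cells with the mark and less of it per cell cannot be told apart in bulk libraries.

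At the edge of the rule, the 1871 peaks with exactly 3 blocks had a median of 299 bp and a fold of 3.33, and the 3415 peaks with 2 blocks had 151 bp and 2.86. Length and fold then climbed with each further class of block count. The 271 peaks with 20 or more blocks had a median of 4876 bp and a fold of 17.3. The median multi-exon peak had 5 blocks, and its exons were spread over 8952 bp of genome, introns included.

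**Figure D1:**
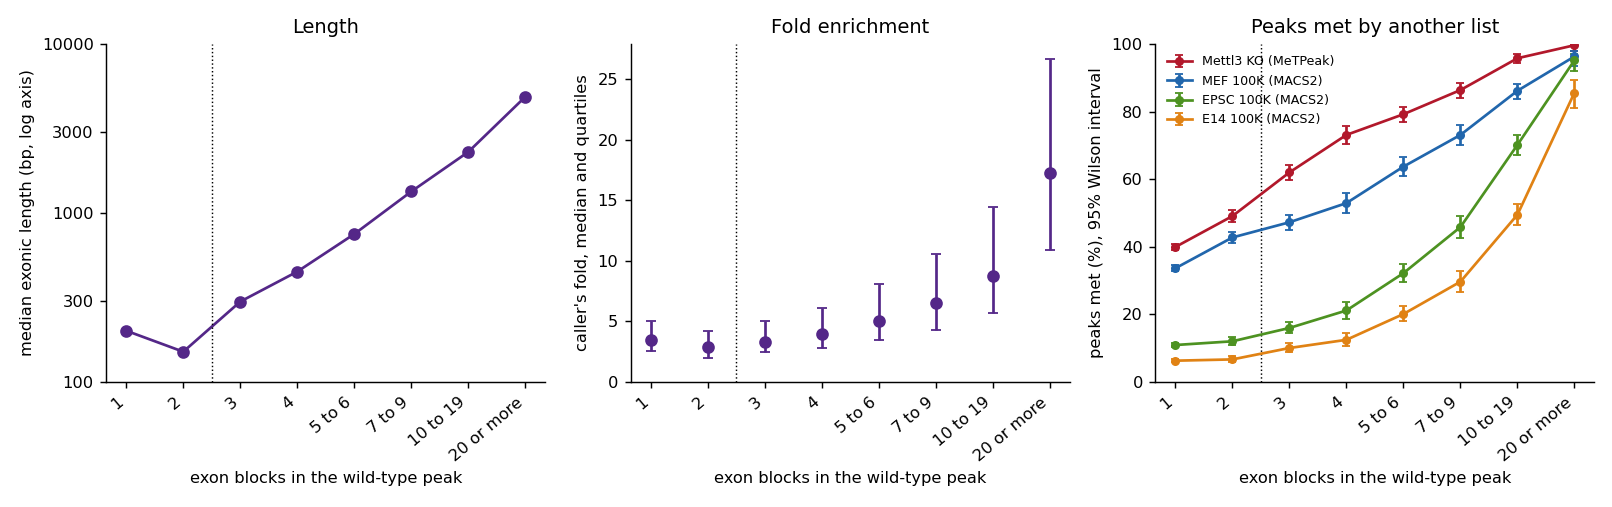
Median exonic length (bp, log axis), median fold enrichment with quartiles, and the share of wild-type peaks met by each of 4 other peak lists (percent, bars are Wilson 95% intervals), by the number of exon blocks; multi-exon peaks lie to the right of the dotted line. From 3 blocks to 20 or more, the median length goes from 299 to 4876 bp and the share met by Mettl3 KO peaks from 62.0% to 99.6%.

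Length and fold moved together, and the order of the classes in fold turned once length was held. Among peaks of up to 150 exonic bp, the median fold was 2.26 in multi-exon and 2.67 in single-block peaks. It was 2.71 against 3.33 over 150 and up to 250 bp, 3.25 against 4.0 up to 500 bp, 4.5 against 5.5 up to 1000 bp, and 6.6 against 7.94 up to 2000 bp. Only above 2000 bp did multi-exon peaks have the higher median, 13.9 against 13.5. Split further by the input level of the gene, multi-exon peaks had the lower median fold in 21 of 24 cells of length and input and the higher in 2. Of the multi-exon peaks 24.2% were over 2000 bp, against 1.89% of single-block peaks, so the higher overall fold of the former goes with their length. The authors' caller gave multi-exon peaks slightly weaker support, with a median log10 FDR of -4.76 against -5.06.

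**Figure D2:**
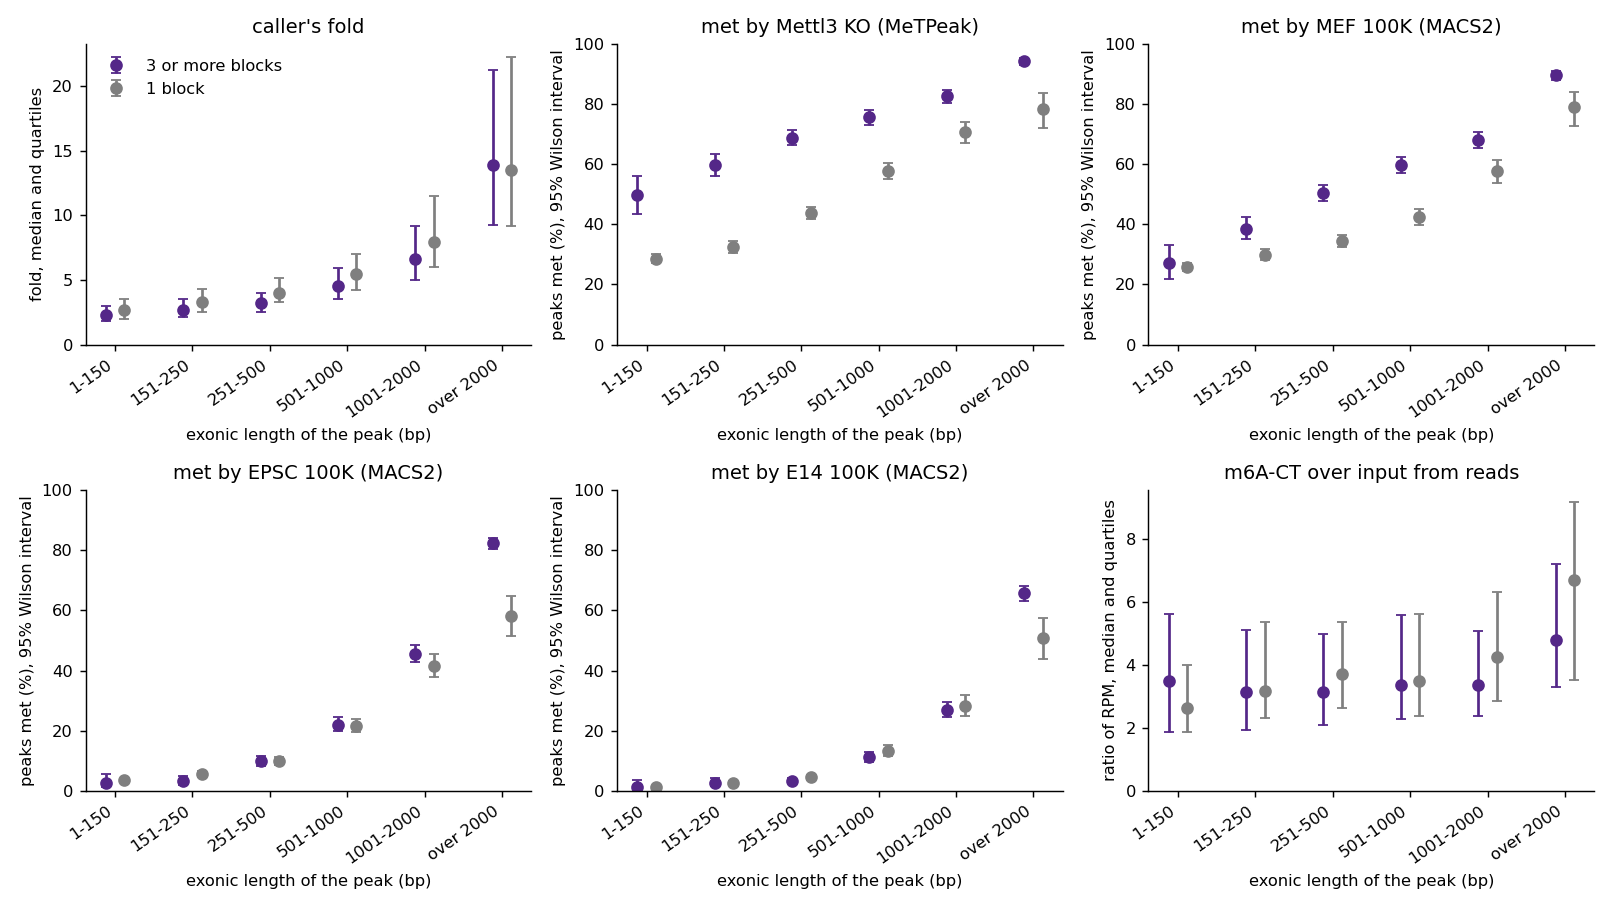
Peaks with 3 or more blocks (purple) and with 1 block (grey) within strata of exonic length (bp): the caller's fold and the m6A-CT over input ratio from reads (median and quartiles), and the share met by each other list (percent, Wilson 95% intervals). At equal length the fold of multi-exon peaks is lower up to 2000 bp, the share met by Mettl3 KO peaks is higher in every stratum, and the shares met by E14 and EPSC peaks part clearly only above 2000 bp.

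The blocks of a multi-exon peak differed much in size. Together the members held 42681 blocks. The 30415 internal ones, which are whole exons as the caller saw them, had a median of 127 bp (quartiles 94 and 168), and the end blocks, which the peak may cut short, had 83 bp (36 and 226). The gaps between blocks had a median of 1200.5 bp. The longest block of each member held 47.2% of all exonic bp. It was at least 50% of the peak in 2626 members (42.8%), and in 1438 of these it was the block at the 3′ end. A block shorter than 25 bp occurred in 2062 members (33.6%), and 5386 (87.8%) still had 3 or more blocks when such slivers were not counted.

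Where the longest block lay went with both the caller's fold and the length of the peak, and length was not held here. The 2550 members whose longest block was at the 3′ end had a median length of 1644 bp and a fold of 8.0. In the 2987 with an internal longest block these were 450.0 bp and 3.76, and in the 596 with it at the 5′ end 601 bp and 4.25. By size of the longest block, the median fold was 2.92 in 1476 members with none over 150 bp and 14.0 in 1329 members with one over 1000 bp. Of the latter 966 reached 10-fold, of the former 8.

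The strongest multi-exon peak by fold was in Nufip2, which encodes an RNA-binding partner of FMRP. It has 4 blocks, 5850 exonic bp and a fold of 104 (chr11:77499841-77527119, mm9, plus strand), and its last block holds 3935 bp. In the genotype table the regions meeting it summed to 257 RPM (m6A-CT) and 22.4 RPM (input) in wild-type cells and 103 RPM (m6A-CT) and 18.0 RPM (input) in KO cells. The ratio of m6A-CT to input was thus 11.5 in wild-type and 5.75 in KO, a log2 change of -1.0 with a counting error of 0.07. The caller's fold is far above this ratio. Its formula is not given in the sources used here, so ratios from reads stand beside it throughout. Regions that reach beyond a peak are counted whole in these sums. Blocks without a listed region add nothing to them, so a ratio can rest on few of a peak's blocks.

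Celsr1, a cadherin of planar cell polarity, followed with 35 blocks, 10650 bp and a fold of 82.2 (chr15:85729438-85864057). Its regions had 672 RPM (m6A-CT) and 45.9 RPM (input) in wild-type cells and 99.1 RPM (m6A-CT) and 16.1 RPM (input) in KO cells. Both RPM values were lower in KO, and the ratio went from 14.6 to 6.14. In Celsr1 the longest block is at the 5′ end and had a log2 change of -0.91, while the 30 regions on its other blocks summed to a change of -1.47.

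Mga, which encodes a MAX partner in transcriptional repression, had 23 blocks, 11484 bp and a fold of 81.7 (chr2:119728423-119793070), with a ratio of 12.7 in wild-type and 4.8 in KO. Its longest block, at the 3′ end, changed by -1.85 on the log2 scale and its other blocks by -1.31.

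Grik3, a kainate receptor subunit, had 6 blocks, 6794 bp and a fold of 74.0 (chr4:125363456-125391117), and no KO peak met it. E14 peaks covered 70.8% of it and EPSC peaks 82.0%, and MEF peaks covered none of it. Its input was 24.6 RPM in wild-type and 6.58 RPM in KO, and its m6A-CT 246 and 27.3 RPM, so that the ratio was 10.0 and 4.14. Adnp, a chromatin-binding homeodomain protein gene, had 3 blocks and a fold of 70.0 (chr2:168006664-168014812). The same 3′ stretch is listed again under Gm20716 with 4 blocks and the same fold, so these are not separate measurements. In all 50 members (0.815%) overlapped another wild-type peak on the same strand. Fat1, an atypical cadherin, had 26 blocks, 14227 bp and a fold of 67.7 (chr8:46035662-46137311). Its wild-type ratio was 21.3, the highest of the members named so far, against 6.49 in KO, with 1734 and 81.3 RPM in wild-type m6A-CT and input and 350.3 and 53.9 RPM in KO.

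The members with the most blocks were in genes of giant proteins. Macf1, a linker of microtubules and actin, had 94 blocks and 22345 exonic bp over 186133 bp of genome (chr4:123027376-123213508), with a fold of 58.7. Its 80 regions summed to 2409.9 RPM (m6A-CT) and 206 RPM (input) in wild-type cells and 1546 RPM (m6A-CT) and 241 RPM (input) in KO cells, a change of the ratio from 11.7 to 6.41. A single KO peak covered the whole Macf1 peak. Its longest block, an internal exon of 5331 bp (chr4:123148250-123153580), had a ratio of 22.0 in wild-type and 6.06 in KO, and the 79 regions on its other blocks had 10.7 and 6.44. The fall was thus larger on the giant exon (log2 change -1.86) than on the other blocks (-0.74).

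Hspg2, the basement membrane proteoglycan perlecan, had 92 blocks, none over 690.0 bp, and a fold of 36.2 (chr4:137064346-137126096). Its ratio was 9.32 in wild-type and 5.52 in KO. Usp34, a deubiquitinase, had 80 blocks and a ratio of 10.1 against 5.56. In the other 2 of the 5 with the most blocks the scale matters, for the size of the change in Huwe1 and for its direction in Dync1h1. Huwe1, a ubiquitin ligase, had 82 blocks and a fold of 10.8 (chrX:148241324-148369113), with 499 RPM and 184 RPM in wild-type m6A-CT and input and 389 RPM and 97.3 RPM in KO. Its ratio was 2.71 in wild-type and 4.0 in KO, a log2 change of 0.56 with a counting error of 0.03. Of its 23 regions 18 were above 0 in the authors' deposited table, and the change would be 0.06 if shifted by the median difference between that table's changes and those of RPM, which is -0.50. Dync1h1, the heavy chain of cytoplasmic dynein, had 75 blocks and ratios of 3.84 and 3.75, a log2 change of -0.03 with a counting error of 0.02. It was 0.13 without the reads of Lars2 and Rn45s, which take different shares of the libraries, and 28 of its 30 regions were below 0 in the authors' deposited table.

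Among the longest members, Plec, encoding the cytolinker plectin, had 34 blocks and a fold of 60.6 (chr15:76001653-76025907), and its ratio went from 9.06 to 2.89. Kmt2a, a histone H3K4 methyltransferase gene, had 34 blocks and a fold of 46.0 (chr9:44611988-44658133), and its ratio went from 14.0 to 5.49. Rnf213, a large ubiquitin ligase, had 66 blocks and 5.66 against 3.25. Birc6, an inhibitor of apoptosis, had 73 blocks and 4.16 against 3.3. In all 4 the longest block had the higher wild-type ratio and the larger fall: in Plec, for example, 11.8 and a log2 change of -2.29, against 7.18 and -1.15 on the other blocks.

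**Figure D3:**
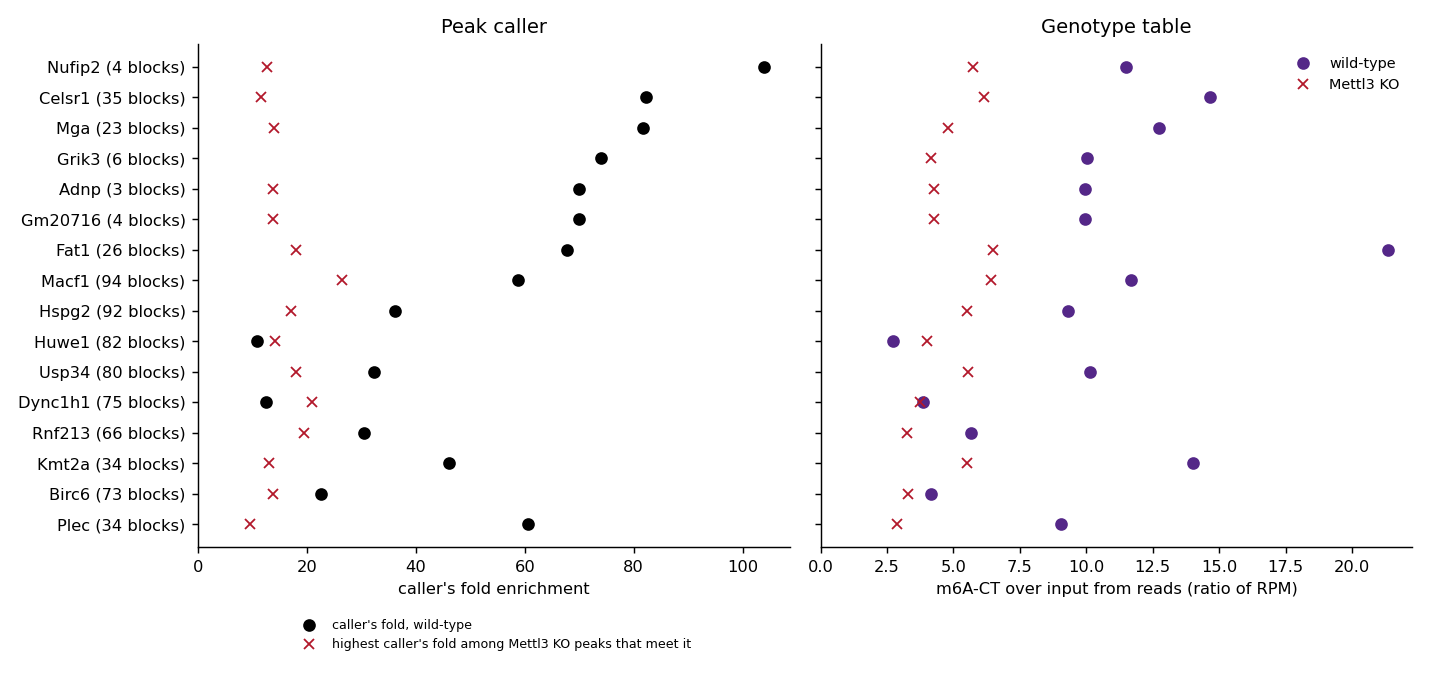
Multi-exon peaks among those of highest fold, most blocks and greatest length: the caller's fold in wild-type and the highest fold among Mettl3 KO peaks that meet the peak (left), and m6A-CT over input from pooled reads in both genotypes (right, ratio of RPM, no replicate error available). On the deposited RPM scale Huwe1 has the higher ratio in KO and Dync1h1 nearly equal ratios. The direction for Dync1h1 depends on the scale, and that for Huwe1 does not. Grik3 has no KO peak, and Gm20716 repeats the stretch of Adnp.

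Multi-exon peaks were met by KO peaks far more often than single-block peaks. A KO peak shared at least 1 bp of exon on the same strand with 4744 of 6133 multi-exon peaks, or 77.4% (interval 76.3 to 78.4), and with 4196 of 10507 single-block peaks, or 39.9% (39.0 to 40.9), where 52.9% of the whole wild-type list was met. KO peaks covered 71.6% of the exonic bp of the former and 36.3% of the latter. The share rose with block count, from 62.0% at 3 blocks to 99.6% at 20 or more. It stayed higher at equal length in each stratum: 49.8% against 28.6% up to 150 bp, 68.8% against 43.6% over 250 and up to 500 bp, and 94.4% against 78.4% above 2000 bp. At equal fold it was 68.8% against 30.9% below 3-fold and 93.4% against 82.8% at 10-fold or more.

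Genes with multi-exon peaks also had more input RNA, which moved with these shares. The wild-type input of the gene's regions had a median of 3.67 RPM per exonic kb for the 5632 multi-exon peaks with a value and 1.25 for the 9261 single-block peaks. Within the lowest quartile of this level KO peaks met 60.6% of multi-exon and 25.2% of single-block peaks, and within the highest 86.1% and 63.0%. In all 24 cells of length and input the multi-exon share was the higher. Both classes were met more often where input was higher, and the part of RNA level in the difference was not tested.

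Being met does not mean equal enrichment. Among the 4744 met members the median fold was 5.5 in wild-type and 4.8 for the strongest KO peak that met them. The KO fold was the lower in 2972 of them (62.6%), where it was so for 57.8% of all met peaks. For single-block peaks that share was 58.0%. Members were also cut up differently between lists: 2257 of the met members (47.6%) were met by more than 1 KO peak, and the KO peak with the greatest overlap had 3 or more blocks for 3597 (75.8%). The KO list had nearly the same make-up, with 6056 of its peaks (29.6%) carrying 3 or more blocks, a median of 594 bp and a fold of 3.83. The 1389 members that no KO peak met were shorter and weaker, with a median of 401 bp and a fold of 3.8.

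Reads gave a second view of the same peaks, from the table in which the authors compared the genotypes. Of its regions with at least 50 reads over the 4 columns, 30318 in number, 27384 were lower in KO at FDR 0.05 by the authors' test (90.3%) and 2930 higher (9.66%), so nearly every region listed there had passed. Multi-exon peaks and no others were met by 15127 regions, of which, in the authors' deposited table, 14308 (94.6%) were lower and 817 (5.4%) higher. Single-block peaks alone were met by 1502 regions, of which 1490 (99.2%) were lower in the authors' deposited table. The median log2 fold change in the authors' deposited table was -1.24 for the former and -1.40 for the latter. The median ratio of m6A-CT to input was 4.13 in wild-type and 2.42 in KO at regions of multi-exon peaks, and 4.27 and 2.24 at those of single-block peaks. These regions were of very different size, with a median of 125 bp for multi-exon peaks, cut exon by exon, and 2021.5 bp for single-block peaks.

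Summed per peak, 3853 multi-exon peaks (62.8%) and 667 single-block peaks (6.35%) had reads enough. The wild-type ratio had a median of 3.78 (quartiles 2.48 and 6.01) in the former and 3.38 (2.35 and 5.45) in the latter, so the classes overlapped almost wholly. It fell in KO beyond its counting error in 2878 of the 3853 multi-exon peaks (74.7%), close to the 74.2% of all 5618 peaks with reads that did so, and rose beyond it in 332. Among the 667 single-block peaks 497 fell and 15 rose. The sums hold only regions of the authors' genotype table, nearly all past their FDR, so these counts are not independent of that selection. These counts depend on the scale: without the reads of Lars2 and Rn45s, which shifts every log2 change by 0.17, 2437 multi-exon peaks fell and 395 rose. Over 30146 regions the log2 fold change in the authors' deposited table minus the RPM change had that median of -0.50, and with all changes shifted by it 3544 multi-exon peaks fell and 269 rose. The median log2 change on the deposited RPM scale was -0.77 (quartiles -1.18 and -0.37) for multi-exon and -0.92 (-1.37 and -0.52) for single-block peaks. By block count it was -1.0 at 3 blocks, -0.58 at 10 to 19 and -0.62 at 20 or more. Above 2000 bp it was -0.76 in 1360 multi-exon and -1.24 in 74 single-block peaks, with wild-type ratios of 4.78 and 6.69. Across the 3853 members, fold from the caller and ratio from reads had a Spearman correlation of 0.51, while length had 0.83 with the fold and 0.27 with the ratio; the points share the same pooled libraries and depth.

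Within the same peak, the longest block was the more enriched. In 1856 members reads could be split between the longest block and the others. The median wild-type ratio was 4.54 on the longest block and 3.65 on the others, and the longest was the higher in 1247 (67.2%). Where the longest block was up to 200 bp the medians were 3.15 and 3.01 and the longest was higher in 190 of 369. Where it was over 1000 bp they were 6.13 and 4.31, and it was higher in 593 of 755 (78.5%). In KO these 755 peaks had 3.19 and 2.45, so the longest block stayed the higher there too. The longest block fell more than the others in 484 of the 755, beyond counting error in 234, and fell less beyond counting error in 72. Shorter longest blocks did not share this. They fell more in 171 of 369 up to 200 bp, 131 of 261 over 200 to 400 bp and 237 of 471 over 400 to 1000 bp.

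**Figure D4:**
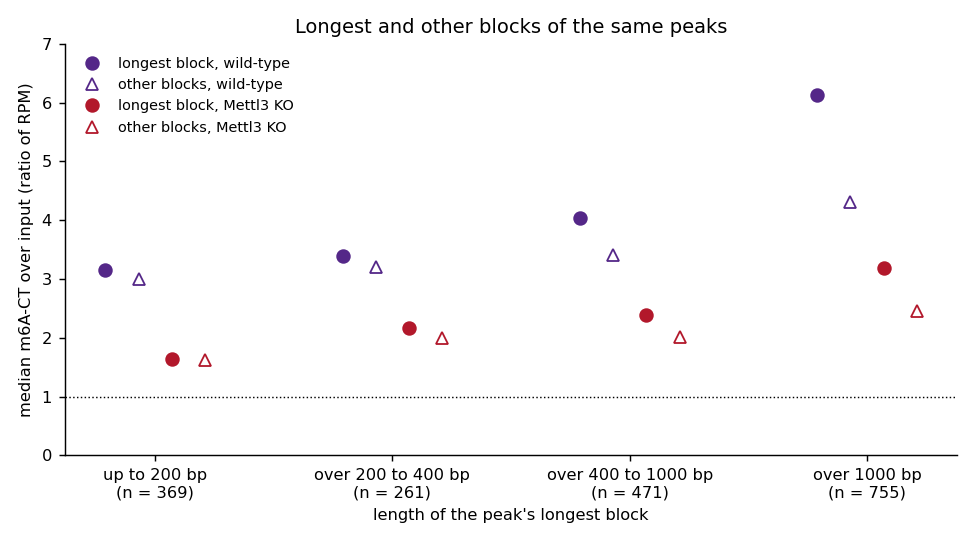
Median m6A-CT over input from reads (ratio of RPM) on the longest block (filled circles) and on all other blocks (open triangles) of the same multi-exon peaks, by length of the longest block, in wild-type (purple) and Mettl3 KO (red); n is the number of peaks and the dotted line marks equal m6A-CT and input. The distance between longest and other blocks is widest where the longest block is over 1000 bp, 6.13 against 4.31 in wild-type.

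At single regions the extremes rested on few reads, so the reads are given. The lowest log2 fold change at a multi-exon peak in the authors' deposited table was -8.98, in a 75-bp stretch of the cholesterol exporter gene Abca1 (chr4:53074378-53074452). It had 52 m6A-CT reads and 1 input read in wild-type cells, and 0 m6A-CT reads and 3 input reads in KO cells. In the authors' deposited table Scarf1, a scavenger receptor gene, followed with -7.96 (51, 0, 6 and 9 reads in the same order), Lrp4, a receptor of the neuromuscular synapse, with -6.76 (90, 2, 1 and 2), Pcnx4 with -6.60 (72, 0, 14 and 6) and the kinase gene Wnk3 with -6.52 (73, 14, 0 and 6). All 5 had a column with no more than 1 read. None of the 5 multi-exon peaks they lie in was met by a KO peak.

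At the other end, the authors' deposited table gave 5.09 for a region of Esco1, a cohesin acetyltransferase gene, with 42, 10, 51 and 0 reads. It gave 4.77 for Tmem106b, a lysosomal membrane protein gene (84, 16, 60 and 0), 4.29 for Eif2ak2, the double-stranded RNA kinase PKR (96, 21, 37 and 0), 4.14 for the DNA damage kinase gene Atm (48, 12, 30 and 0) and 3.36 for the receptor gene Lrp1 (58, 34, 41 and 2), all as listed in the authors' deposited table. Here the low column was KO input in each case, with 0 reads in 4 of the 5. A column of 0 is compatible with up to 3 reads, so no fold of RPM is given for these.

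The lists from other cells were narrower, and their peaks carry no strand, so meeting them was asked without strand. E14 peaks met 1499 multi-exon peaks (24.4%, interval 23.4 to 25.5) and 662 single-block peaks (6.3%, 5.85 to 6.78), where 11.9% of the whole list was met. EPSC peaks met 2198 (35.8%, 34.6 to 37.0) against 1149 (10.9%, 10.4 to 11.5), with 18.7% over the whole list. MEF peaks met 3866 (63.0%, 61.8 to 64.2) against 3535 (33.6%, 32.7 to 34.6), with 44.2% over the whole list. These gaps shrink with a stricter rule. With at least 50% of the wild-type peak covered, the difference between the classes was 1.83 points for E14 (18.1 with 1 bp), 3.95 for EPSC (24.9) and 13.7 for MEF (29.4), and for MEF it was 14.1 with lists of equal length. The lists held 8052, 12183 and 38205 peaks, so their shares are not set against each other here.

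At equal length the picture split by list. MEF peaks met 27.2% of multi-exon and 25.8% of single-block peaks of up to 150 bp, with overlapping intervals. They met 38.6% against 29.9% over 150 and up to 250 bp and 89.6% against 78.9% above 2000 bp, and more of the multi-exon peaks in 23 of 24 cells of length and input. The E14 shares lay close together up to 2000 bp, for example 26.8% (24.4 to 29.4) against 28.2% (24.8 to 31.9) over 1000 and up to 2000 bp. Those of EPSC were 3.15% against 5.55% over 150 and up to 250 bp and 22.0% against 21.6% over 500 and up to 1000 bp. Above 2000 bp multi-exon peaks were met more often, 65.7% against 50.8% by E14 and 82.4% against 58.3% by EPSC. In the cells of length and input the multi-exon share was the higher in 12 of 24 for E14 and in 11 of 24 for EPSC. Members of 20 or more blocks were met by E14 in 85.6%, by EPSC in 95.2% and by MEF in 96.3% of cases.

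Which part of a multi-exon peak was covered also differed by list. E14 peaks covered 23.8% of the bp of the longest blocks and 11.6% of the other blocks, and EPSC peaks 35.7% and 21.4%. KO peaks covered 68.2% and 74.6%, and MEF peaks 56.6% and 58.9%. By block size, E14 coverage was 1.05% of the bp in blocks of up to 50 bp, 5.99% over 100 and up to 150 bp and 32.4% over 1000 bp. KO coverage in the same classes was 53.5%, 73.3% and 73.0%. Blocks of over 100 and up to 150 bp inside multi-exon peaks had 73.3% of their bp under KO peaks, and single-block peaks of that size 19.4%. The former are parts of longer peaks and the latter whole peaks. Among whole peaks of up to 150 exonic bp the shares were 37.7% in multi-exon and 19.2% in single-block peaks. The wild-type and KO lists came from the caller that joins exons into 1 peak, and the E14, EPSC and MEF lists from one that works on the genome, so the part of the caller in this pattern was not tested.

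**Figure D5:**
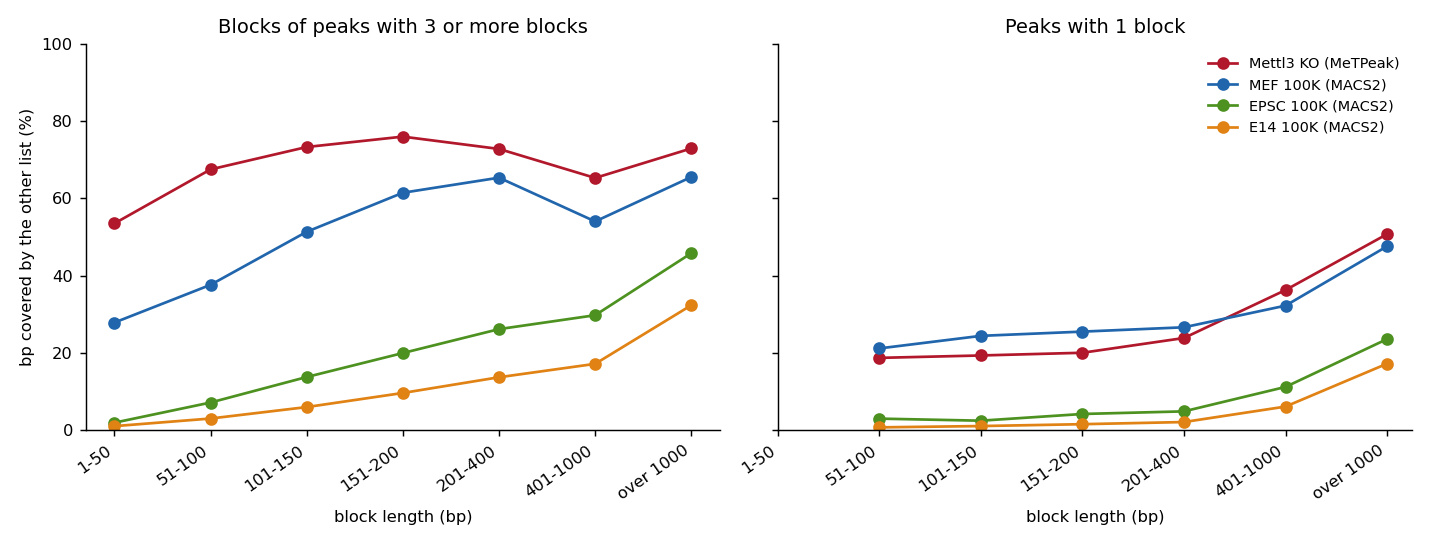
Share of base pairs covered by each other peak list (percent), by block length (bp), for the blocks of multi-exon peaks (left) and for single-block peaks (right); no single-block peak is as short as 50 bp. In multi-exon peaks coverage by E14 goes from 1.05% in the shortest to 32.4% in the longest blocks, while coverage by Mettl3 KO lies between 53.5% and 76.0%.

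Counting the 4 lists together, all 4 met 1095 multi-exon peaks (17.9%) and 214 single-block peaks (2.04%), against 7.08% of the whole list. None met 712 (11.6%) and 4176 (39.7%), against 29.8% of the whole list. Members met by all had a median of 3177 bp and a fold of 15.2, and those met by none 348 bp and 3.33. Among those of highest fold met by all 4 were Nufip2, Celsr1, Mga and Adnp, described above, with MEF covering 0.94% of Celsr1 and at least 88.8% of the other 3. KO peaks alone met 1097 members (17.9%) and MEF peaks alone 494 (8.05%). For single-block peaks these were 2117 (20.1%) and 1730 (16.5%).

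Members met by none could still be strong. Asb7, a substrate receptor of ubiquitin ligases, had a fold of 23.0 in 3 blocks, with 22.7 RPM (m6A-CT) and 3.26 RPM (input) in wild-type cells and 8.13 RPM (m6A-CT) and 2.53 RPM (input) in KO cells. Sall3, a zinc finger transcription factor gene, had a fold of 19.5 and a ratio of 4.27 in wild-type and 1.21 in KO. Map3k9, a kinase gene, had a fold of 16.8 and ratios of 7.95 and 4.65, and Gm9855 had 16.0 with 3.84 and 2.65. Maneal, related to endomannosidase, had 14.0 with 5.06 and 1.92. In all 5 the ratio was lower in KO.

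The multi-exon peaks lay in 3985 of 5838 genes with a peak (68.3%), and 2676 of these genes (67.2%) had just 1. In 1583 genes every peak was multi-exon. There were 77 genes with 5 or more. The share of genes with a multi-exon peak went with the input level of the gene, from 50.0% in the lowest quartile to 86.1% in the highest, while that with a single-block peak went from 89.6% to 35.1%. In the 2060 genes with both kinds the higher fold was that of a multi-exon peak in 1120 (54.4%) and of a single-block peak in 891, and both medians were 5.0. Median lengths there were 651 bp for multi-exon and 249 bp for single-block peaks, and length was not held in this comparison.

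Most multi-exon peaks in a gene were found in Ttn, the giant muscle protein titin, with 25 among its 54 wild-type peaks. They summed to 34764 exonic bp, with folds of 3.5 to 21.0, at an input of 0.70 RPM per kb. KO peaks met 23 of them and E14 peaks 14, and neither EPSC nor MEF peaks met any. Mycbp2, a large ubiquitin ligase gene, had 14, all met by KO and MEF peaks and none by E14 or EPSC. Syne2, encoding the nuclear envelope protein nesprin-2, had 13, again all met by KO and MEF. Vps13a and Vps13c, lipid transfer proteins, had 11 each, of which KO met 6 and MEF 10 in either gene. The multi-exon peaks of these 5 genes had at most 12 blocks each, where Macf1 was called as 1 peak.

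Gene groups differed in how many of their genes with a peak had a multi-exon one, against 68.3% of all genes with a peak. A single-block peak occurred in 63.1% of all genes with a peak. In the highest quartile of gene input, 86.1% had a multi-exon and 35.1% a single-block peak. Differences between groups at equal input were not tested. The counts over the 16 lists are descriptions. All 17 aminoacyl-tRNA synthetase genes with a peak had a multi-exon peak and 2 a single-block peak. For chaperones it was 23 of 24 and 1, for translation factors 22 of 23 and 8, and for chromatin regulators 37 of 39 and 9. For proteasome subunits it was 10 of 11 and 1, for cell cycle and mitosis 26 of 29 and 10, and for genes of cytoskeleton, cadherins and matrix 25 of 28 and 5. All 4 glycolysis genes with a peak had one. Below the share of all genes were long noncoding RNAs and snoRNA hosts with 6 of 11 (54.5%) and naive pluripotency genes with 16 of 26 (61.5%). Near it were m6A writers, erasers and readers with 12 of 18 (66.7%) and cytosolic ribosomal proteins with 15 of 22 (68.2%). Mitochondrial carriers and ATP synthase, with 2 of 3, were near it too. Splicing and RNA-binding proteins had 35 of 44, zinc finger transcription factors 20 of 25, and exon junction complex and nonsense-mediated decay factors 9 of 11.

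The fold of the members varied between groups too, against a median of 5.0 over all of them. In zinc finger genes the 23 multi-exon peaks had a median fold of 16.0 and a longest block of 1735 bp. Zfp292 had 8385 of its 9129 bp in the 3′ block, with ratios of 14.9 in wild-type and 6.98 in KO. Zfp148 had a fold of 67.5 with ratios of 11.8 and 5.86, and Zbtb10 had 41.0 with 15.2 and 5.85. KO peaks met 18 of these 23, near the 77.4% of all multi-exon peaks. The KO fold was the lower in each of the 18, against 62.6% of all met multi-exon peaks. The latter had a median wild-type fold of only 5.5, and gene groups were not compared at equal fold. In naive pluripotency genes the 19 multi-exon peaks had a median fold of 11, and all were met by KO peaks, 15 of them at a lower fold. The 5-methylcytosine oxidase gene Tet1 had 12 blocks, a fold of 60.0 and a longest block of 8494 bp, with 1813 and 178 RPM in wild-type m6A-CT and input and 671 and 95 RPM in KO. Its ratio of 10.2 against 7.06 changed less than that of Tet2, 8.07 against 4.05. Rif1, which acts in replication timing and telomere biology, had 33 blocks and 8.72 against 5.78. Of these 19 peaks, with a median of 2846 bp, E14 met 14 and MEF 11. E14 met 24.4% of all multi-exon peaks and 65.7% of those over 2000 bp, and MEF met 63.0% and 89.6%. MEF peaks covered 4.66% of the Tet1 peak where E14 peaks covered 98.4%.

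Genes of the m6A machinery had 17 multi-exon peaks with a median fold of 8.0. Zc3h13, a subunit of the writer complex, had 13 blocks and ratios of 7.29 in wild-type and 3.48 in KO. The reader gene Ythdf3 had 3 blocks with 7.71 and 3.45, and Wtap, the regulatory subunit, 3 blocks with 6.7 and 2.72. All 17 were met by KO peaks, 9 at a lower fold, and they had a median of 1883 bp. Over all multi-exon peaks 77.4% were met, 62.6% of these at a lower fold. Chromatin regulators had 66 multi-exon peaks with a median fold of 7.14 and a median length of 1711 bp. KO peaks met 59 (89.4%) and MEF peaks 55 (83.3%), where they met 77.4% and 63.0% of all multi-exon peaks. Of multi-exon peaks over 1000 and up to 2000 bp they met 82.6% and 68.1%, and above 2000 bp 94.4% and 89.6%. Arid1a, a subunit of the BAF remodeler, had ratios of 10.6 in wild-type and 3.03 in KO on its 2650.0-bp longest block and 3.2 and 2.08 on its other blocks. Setd2, the H3K36 methyltransferase gene, had 10.6 and 5.66 over all.

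In cytoskeleton, cadherin and matrix genes, to which Celsr1, Fat1 and Plec belong, the 48 members had a median fold of 8.64. KO peaks met 46, at a lower fold in 39. The 48 had a median length of 2115.5 bp. Of all multi-exon peaks KO peaks met 77.4%, 62.6% of these at a lower fold, and of those over 2000 bp 94.4%. Cell cycle genes had 35 members with a median of 5.38. Mki67, the proliferation marker, had 6836 bp in an internal exon and ratios of 6.83 and 5.13. Cenpf, a kinetochore protein gene, had 7.75 and 4.32. Smc2, a condensin subunit, had 6.51 and 6.63, with a counting error of 0.11 on the log2 change of 0.03.

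The housekeeping groups are set beside all multi-exon peaks, of which 77.4% were met by KO peaks, 62.6% of these at a lower KO fold. The met ones had a median wild-type fold of 5.5, and differences at equal wild-type fold or length were not tested. Log2 changes near 0 among named members take their direction from the scale: those of Eif3a, Ncl, Matr3 and Rps9 were below 0 on the deposited RPM scale and above 0 without the reads of Lars2 and Rn45s. Those of Canx, Nars, Vdac1 and Smc2 were above 0 on both, while the authors' deposited table had the median region of each below 0. Translation factors had 23 with a median fold of 6.19 at a median input of 37.5 RPM per kb, all met by KO, 8 at a lower fold. Eif3a, an initiation factor subunit, had 21 blocks, a fold of 35.2 and ratios of 3.81 and 3.63, and Eif4g1, the scaffold of cap binding, 3.19 and 2.77. Eif5, which promotes GTP hydrolysis at start codon choice, had 6.73 and 5.73 from 2 regions for its 11 blocks. Chaperones had 28 members, all met, 11 at a lower fold. Hspa5, the chaperone BiP of the endoplasmic reticulum, had 799 and 89.9 RPM in wild-type m6A-CT and input and 285 and 90.9 RPM in KO, which gives 8.89 and 3.14. Canx, calnexin, had 4.23 and 4.97 from 1 region for its 15 blocks, and Pdia4, a disulfide isomerase, 5.33 and 3.55.

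Splicing and RNA-binding proteins had 41 members with a median fold of 6.5, all met, 16 at a lower fold. Hnrnpu, a nuclear matrix and RNA-binding protein gene, had 4.4 in wild-type and 6.12 in KO, from 3 regions for its 12 blocks. Its longest block, at the 3′ end, went from 7.53 to 6.35 while its other blocks went from 3.67 to 6.02. Ncl, nucleolin, had 3.66 and 3.56, and Matr3, matrin 3, 2.04 and 1.964 from 2 regions for its 14 blocks. The exon junction complex and decay group had 17 members, all met, 9 at a lower fold, among them Smg1, the kinase of nonsense-mediated decay, with 56 blocks and ratios of 8.31 and 5.01 and Upf2 with 9.5 and 4.69.

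Of 26 members in aminoacyl-tRNA synthetase genes 25 were met by KO peaks, 7 at a lower fold. Eprs, the bifunctional glutamyl-prolyl enzyme, had 2.64 in wild-type and 4.95 in KO, from 2 regions for its 23 blocks. Yars had 3.16 and 2.03, and Nars 2.12 and 2.15 from 1 region for its 15 blocks. The 12 proteasome members were all met, 4 at a lower fold. Psmd1, a subunit of the regulatory particle, had 1.48 and 3.42, and Psmd7 and Psmd13, of the same particle, 2.78 and 1.86 and 2.31 and 1.48. Glycolysis had 8 members, all met, 3 at a lower fold. Hexokinase 2 (Hk2) had a fold of 31.8 and ratios of 4.86 and 2.94, Hk1 had 8.91 with 3.73 and 2.9, and the phosphofructokinase gene Pfkp a fold of 6.0 with no region in the genotype table. Mitochondrial carriers and ATP synthase had 2 members, both met and neither at a lower fold: Vdac1, the outer membrane channel, with 2.04 and 2.31, and Atp5c1 with a fold of 2.95.

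Cytosolic ribosomal proteins had 16 members with a median fold of 2.26 and a longest block of 168.5 bp. All were met by KO peaks, 4 at a lower fold, and 1 by a MEF peak. MEF peaks met 63.0% of all multi-exon peaks and 50.3% of those over 250 and up to 500 bp. Rps3a1 had a fold of 3.22, Rpl3 had 3.12 and Rps9 2.75, the last with ratios of 1.6 and 1.59. Ribosomal protein genes have many near-identical processed copies, and reads may have been split between them. Of the 7 multi-exon peaks in long noncoding RNAs and snoRNA hosts 4 were met by KO peaks and 1 by a MEF peak. Over all multi-exon peaks these shares were 77.4% and 63.0%. Rian, an imprinted noncoding RNA, had 11 blocks, 1840.0 bp and a fold of 42.7. E14 peaks covered 93.8% and EPSC peaks 70.6% of it, MEF peaks none, and the 5 KO peaks that met it reached a fold of 3.5. Snhg14 had a fold of 11.5 and no KO peak. Gas5, a snoRNA host, had 11 blocks in 376 exonic bp, none over 48 bp, and its 1 region had 3.59 RPM (m6A-CT) and 0.244 RPM (input) in wild-type cells and 1.33 and 0.235 RPM in KO cells, few reads in the inputs.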

How the data were processed

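Trim Galore, STAR 2.7.2, MACS2 and the build mm9 are named in the submitters' processing notes, without their order or settings; the deposited E14, EPSC and MEF lists have MACS2's peak format. The labels name MeTPeak and exomePeak2 for the genotype files; versions, settings and pooling of replicates are not given in the sources used here. The deposited MeTPeak columns are a fold, a p-value and a log10 score for p and FDR. The deposited MACS2 columns are a fold ratio at the summit, a score, and −log10 p and q, with −log10 q of at least 10. The deposited exomePeak2 columns are RPM per pooled group, a log2 fold change, its p-value and −log10 p. Each deposited RPM value came out as whole reads (tolerance 0.01 reads, 100% of values); a count model needs values per library and was not run.

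Peaks met where they shared at least 1 bp of exon block. Ratios are m6A-CT RPM over input RPM, with a minimum of 50 reads over 4 columns; counting errors come from the reads. Scripts (Python 3.11.15, pandas 2.3.3, numpy 2.4.6) were tested on simulated data. Named genes are those of highest fold, most blocks, greatest length, most members, met by none or by all lists, with lowest or highest log2 fold change, and up to 3 by fold from each of 16 gene lists. Members and lists were chosen with earlier results of these data known. Older gene names were resolved through a RefSeq table. Sequences, and the place of blocks in coding sequence or UTR, were not analysed here. Alternatives covered block count, block size, overlap rule, strand, length, fold, input level, list length, read minimum and scale. Some peaks that the rule names are not reported here.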

Additional observations from a re-analysis of the deposited data

How the results depend on the processing

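No paired analysis was possible because the deposited columns and lists combine the replicates, so leaving out a replicate could not be done either. Over 11 results, most of them differences between multi-exon and single-block peaks, 78 alternatives were run. They gave 24 values within the main interval, 50 outside it in the same direction and 4 of opposite sign. The cause was not tested. For shares the main interval came from Wilson intervals. For differences of medians it came from the ranks of single peaks or regions, which are not replicates. Alternatives by input density and by share of exonic bp, and the scales applied per peak, were chosen after seeing the data.

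The difference in median exonic length (644 bp) became 249 with 2 or more blocks, 1036.5 with 4 or more, 798 counting blocks of at least 25 bp, 997.5 with 1 peak per gene and class, 547 at log10 FDR of -5 or below and 97.0 for peaks of 200 to 1000 bp. The difference in median fold (1.5) became 0.50, 2.50, 1.93, 2.10 and 1.17 in the first 5 of these, and reversed to -0.61 for 200 to 1000 bp and -0.61 within strata of length. That in median log10 FDR (0.30) became 0.17 with 1 peak per gene, 1.495 at -5 or below and 0.12 within strata of length.

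The difference in percent met by KO (37.4 points) became 22.7 with at least 50% of both peaks, 27.3 with 2 or more blocks, 44.2 with 4 or more, 39.3 with blocks of at least 25 bp, 25.6 for 200 to 1000 bp, 19 within strata of length, 28.0 within strata of fold, 28.4 within quartiles of input, 33.3 in the 2 middle quartiles and 35.3 by exonic bp. For E14 (18.1) it became 1.83 with at least 50% of the wild-type peak covered, 11.8 with 2 or more blocks, 24.5 with 4 or more, 21.0 with blocks of at least 25 bp, -0.031 for 200 to 1000 bp, 2.7 within strata of length and 8.96 by exonic bp. For EPSC (24.9) these were 3.95, 16.4, 33.6, 29.0, 1.84, 6.41 and 15.1, with 26.3 over whole spans and 20.2 with lists of equal length. For MEF (29.4) they were 13.7, 22.1, 36.3, 31.8, 17.2, 12.5 and 22.6, with 14.1 at equal list length.

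The difference in median wild-type ratio (-0.15) was 0.19 where at least 50% of a region lay inside the peak. The main interval, -0.32 to 0.06, includes 0, but it counts regions of the same peak separately and is not a replicate error. Without the reads of Lars2 and Rn45s all log2 changes of RPM ratios moved by 0.17, and the difference between the classes did not. Listed genes with a multi-exon peak (83.5%) became 92.2% with 2 or more and 75.1% with 4 or more blocks. Genes where the multi-exon fold was higher (54.4%) became 62.0% by median fold.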
